A study of Mus musculus with 22 samples.

Results

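Immediate early genes are transcribed within minutes of a stimulus, without new protein synthesis, because the factors that switch them on are already present in the cell. In neurons, calcium entry and growth factor signalling activate kinases that act on the transcription factors CREB, SRF with its ETS partners, and MEF2, which are bound near these genes. Most of the products are themselves transcription factors, so the genes are widely used as a record of recent neuronal activity. The 10 genes described here were taken from a list of names, drawn up with earlier results of these data known: Fos, Fosb and Junb (subunits of the dimeric factor AP-1), Egr1 and Egr2 (zinc-finger factors), Nr4a1 (an orphan nuclear receptor), Dusp1 (a phosphatase that switches MAP kinases off), Ier2 (a nuclear protein induced by growth factors), Arc (a synaptic protein that drives removal of AMPA receptors) and Npas4 (a bHLH-PAS factor induced by calcium entry). Arc and Npas4 are neuronal, while the other 8 are induced in many cell types. They are 10 of the 20129 genes for which the array held a probe identified by RefSeq, and all 10 were among the 16691 of these genes that passed the filter on dim probes.

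The levels were measured in whole brains that had been cut into fractions, a method called Transcriptome Tomography. There were 22 fractions from 3 male C57BL/6J mice with no treatment or genetic change named in the labels: 10 coronal fractions of mouse 1, 6 horizontal fractions of mouse 2 and 6 sagittal fractions of mouse 3. The sample titles give an age of 7 days after birth, whereas the age field of the same labels gives 3 days. Each fraction was hybridized once to 1 single-colour array, so neither a fraction nor a plane of section was replicated, and the series, the mouse and, for the most part, the slide cannot be told apart. The labels do not say at which face of the brain fraction 1 lies. In the coronal series, the summed level of 6 hindbrain Hox genes was highest in fraction 1 (5.36) and that of 4 olfactory bulb markers in fraction 10 (5.92), and 4 cerebellar markers had a summed level of 6.49 to 7.08 in fractions 1 to 3 and of 2.54 to 3.45 in fractions 8 to 10. The fractions contained many cell types, so that fewer cells of a type and less RNA per cell cannot be told apart.

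A level is the log2 signal of a probe minus the 75th percentile of its array, so that 0 is the signal of a fairly bright probe and 1 unit is a doubling. Each of the 10 genes had exactly 1 RefSeq probe, and the probes differ in brightness, so levels were compared between fractions for a gene and never between genes. Of the 220 values, 215 were well above background, and the exceptions were all Junb, in coronal fractions 1 and 2 and sagittal fractions 4, 5 and 6. The arrays had 29605 to 41965 detected probes and a 75th percentile of 260 to 604 intensity units. On 7 arrays (coronal 1 and 2, horizontal 1 to 3, sagittal 1 and 3) the slope of the spike-in controls, 0.773 to 0.891, was out of range.

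To show the kind of DNA through which these genes are switched on, the 250 bases before the transcription start are printed for 5 of them, taken from RefSeq (GRCm38.p6, a later build than the mm9 of the array annotation). Fos, Nr4a1, Junb and Npas4 changed along the coronal series and Dusp1 did not pass that test. Capitals mark the letters TGACG, the core of the cAMP response element bound by CREB, on either strand (CGTCA is the same core on the other strand), and the full element TGACGTCA, which contains it. The sequences run 5′ to 3′ along the gene.
Fos (chr12:85473640-85473889, plus strand): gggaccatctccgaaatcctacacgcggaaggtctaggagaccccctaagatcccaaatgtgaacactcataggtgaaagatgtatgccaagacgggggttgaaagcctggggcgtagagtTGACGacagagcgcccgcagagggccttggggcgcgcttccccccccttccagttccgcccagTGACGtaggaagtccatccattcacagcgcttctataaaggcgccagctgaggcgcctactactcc
Nr4a1 (chr15:101266596-101266845, plus strand): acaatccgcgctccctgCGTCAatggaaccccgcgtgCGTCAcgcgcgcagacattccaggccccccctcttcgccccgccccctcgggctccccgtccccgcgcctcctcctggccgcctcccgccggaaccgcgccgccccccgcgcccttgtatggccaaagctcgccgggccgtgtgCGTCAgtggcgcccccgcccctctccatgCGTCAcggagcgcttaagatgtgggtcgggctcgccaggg
Junb (chr8:84978749-84978998, minus strand): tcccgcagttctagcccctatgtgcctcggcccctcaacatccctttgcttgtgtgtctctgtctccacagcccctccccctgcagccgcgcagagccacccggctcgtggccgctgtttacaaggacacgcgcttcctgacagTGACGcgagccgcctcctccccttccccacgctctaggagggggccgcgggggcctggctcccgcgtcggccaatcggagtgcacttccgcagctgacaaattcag
Npas4 (chr19:4989972-4990221, minus strand): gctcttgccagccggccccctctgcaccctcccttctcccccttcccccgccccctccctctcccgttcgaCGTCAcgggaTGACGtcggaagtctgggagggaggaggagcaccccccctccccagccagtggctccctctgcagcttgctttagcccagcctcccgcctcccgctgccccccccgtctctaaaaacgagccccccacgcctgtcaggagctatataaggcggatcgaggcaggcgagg
Dusp1 (chr17:26508473-26508722, minus strand): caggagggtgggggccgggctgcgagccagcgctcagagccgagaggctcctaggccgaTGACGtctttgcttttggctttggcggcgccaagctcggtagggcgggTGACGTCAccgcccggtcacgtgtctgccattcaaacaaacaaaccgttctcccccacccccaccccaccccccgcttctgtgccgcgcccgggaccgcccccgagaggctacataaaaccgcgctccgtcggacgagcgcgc

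The promoter table held 7 of the 10 genes, and Egr1, Arc and Ier2 were not among them. The core TGACG was present, on either strand, in the 250 bases before at least 1 listed start of all 7 genes (Fos, Fosb, Junb, Egr2, Nr4a1, Dusp1 and Npas4), and in 17.8% of the 32851 promoters of the table. Nr4a1 had 4 copies, which began 233, 213, 69 and 40 bases before the start, and Fos had 2, at 129 and 66 bases. Dusp1 was the only member with the full TGACGTCA, 143 bases before its start, a motif found in 1.55% of all promoters. A CArG box, the site of SRF, was found in Egr2 alone, as CCATATATGG and as CCTTTTTTGG, each beginning 72 bases before a different listed start, against 1.47% of all promoters. The letters GCGTGGGCG, a site of the Egr proteins, were in none of the 7 and in 0.536% of all promoters, and TATAAA was in Fos alone and in 12.4% of all. These matches describe the letters in the window and say nothing of binding in these brains.

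Along the coronal series, 8 of the 10 genes changed with position, all with a positive linear slope towards fraction 10: Egr1, Npas4, Junb, Nr4a1, Egr2, Arc, Fosb and Fos. This was tested in limma by an F-test on the linear and quadratic terms, with Benjamini-Hochberg adjustment over 39621 probes. Of these probes 19.8% passed at 0.05, 12.4% with a positive and 7.46% with a negative slope. Neither Dusp1 nor Ier2 passed. With the linear term alone, Fos, Fosb and Egr2 did not pass either (adjusted p = 0.111, 0.116 and 0.0591, limma). In that fit 7.12% of all probes passed. Over the 10 genes, fitted curves spanned a median of 2.11 log2 units, against 0.99 over all probes tested. The slopes of the 8 genes stayed positive when arrays were centred on the median, quantile normalized, left unscaled or corrected by normexp, although 7 and not 8 passed without scaling (Fos did not). Since each fraction was measured once, the test uses the scatter of fractions around the curves of the 3 brains (residual SD 0.22 to 0.45 for the 10 genes) and contains no spread between animals. Coronal fractions 1 and 2 are both arrays with an out-of-range spike-in slope (log2 signal of spike-in probe a107 6.40 and 6.98, against 3.69 to 4.95 on the other 8), and fraction 2, the lowest for Egr1, Npas4, Nr4a1, Arc, Junb and Fos, was alone on its slide. On the in-range arrays, without these fractions, Egr1, Npas4, Nr4a1, Junb, Fos and Fosb passed, as did Ier2 with a negative slope (adjusted p = 0.0419), and Arc (adjusted p = 0.0667) and Egr2 (adjusted p = 0.265) did not, where 10.4% of all probes passed. At the other end, fractions 9 and 10 were on the slide of the sagittal fractions, and fractions 1 and 3 to 8 on another. Fraction 10 pools slabs 10 and 11.

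**Figure D1:**
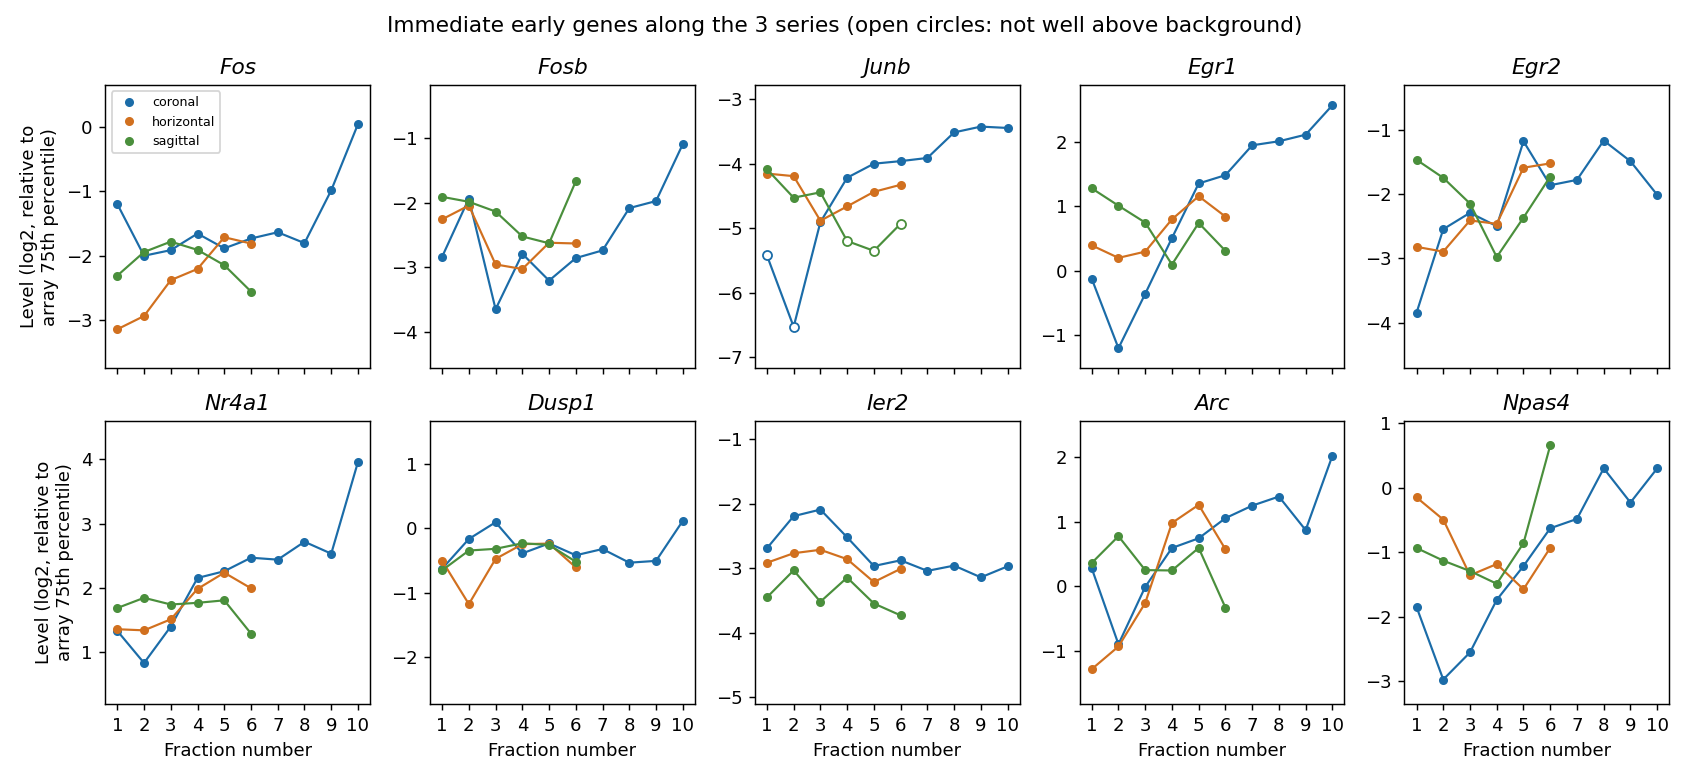
Level of each immediate early gene (log2 relative to the 75th percentile of the array, y axis, all panels spanning the same number of units) by fraction number (x axis) in the coronal, horizontal and sagittal series, 1 array per point, with open circles for values not well above background. Egr1, Nr4a1, Arc and Npas4 climbed from coronal fraction 2 to fraction 10, and Dusp1 stayed between -1.18 and 0.11 on all 22 arrays.

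The zinc-finger gene Egr1 had the widest fitted range of the 10 genes along the coronal series. Npas4 was wider on the in-range arrays (2.69 against 2.59) and with the slide as a block (4.13 against 3.65). The coronal levels of Egr1 ran from -1.20 in fraction 2 through a median of 1.42 to 2.57 in fraction 10. The values of -0.12, -1.20 and -0.36 in fractions 1 to 3 all lay below the 2.01, 2.11 and 2.57 of fractions 8 to 10, a difference in means of 2.79 log2 units or 6.92-fold. The fitted range was 3.53 log2 units (adjusted p = 0.00058, limma). Egr1 passed in all 22 fits that left out 1 array and in all 13 other settings.

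Egr2, whose product is best known from hindbrain segments and Schwann cells, had a different course. Its coronal levels were lowest in fraction 1 (-3.84), had a median of -1.94 and peaked at -1.18 in fraction 5 and -1.17 in fraction 8, with -2.01 in fraction 10. The mean of fractions 8 to 10 was 1.34 above that of fractions 1 to 3, and the groups did not overlap (highest of the first 3 -2.29, lowest of the last 3 -2.01). The curve had a range of 2.12 (adjusted p = 0.0044, limma), and without fraction 1 the test was no longer passed (adjusted p = 0.069). Under normexp the range was 0.84, and on the in-range arrays 0.97.

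Nr4a1 had a step at the last fraction, which pools slabs 10 and 11. Its coronal levels were 1.33, 0.84 and 1.40 in fractions 1 to 3, between 2.16 and 2.72 in fractions 4 to 9, and 3.96 in fraction 10. The last 3 fractions were on average 1.88 log2 units, or 3.68-fold, above the first 3 without overlap. The fitted range was 2.45 (adjusted p = 0.0009, limma), and Nr4a1 passed in all 22 fits without 1 array and in all 13 other settings.

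Among the AP-1 subunits, Junb was dim and its increase is partly a bound. In coronal fractions 1 and 2 its signal (-5.42 and -6.53) was not well above background. From fraction 3 to fraction 10 it was detected, at -4.91 in fraction 3 and between -3.51 and -3.42 in fractions 8 to 10. The fitted range was 2.58 (adjusted p = 0.00188, limma), and the call held in each of the 22 fits without 1 array. It was lost when the coronal arrays were fitted alone (adjusted p = 0.0536), at the same range of 2.58, where 1.6% of all probes passed. The size depended on the background correction and on the first fractions, with a range of 0.60 under normexp and of 1.31 on the in-range arrays.

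The coronal calls of Fos and Fosb depended on fraction 10. Fos levels were -1.20 in fraction 1 and between -2.0 and -1.64 in fractions 2 to 8, then -0.98 in fraction 9 and 0.04 in fraction 10. Fosb levels ran from -3.65 in fraction 3 through a median of -2.77 to -1.09 in fraction 10. For both genes the first 3 and last 3 fractions overlapped, with mean differences of 0.79 for Fos and 1.09 for Fosb. The fitted range was 1.84 for Fos (adjusted p = 0.00115) and 1.98 for Fosb (adjusted p = 0.0139) in limma. Without fraction 10 neither passed (adjusted p = 0.0667 for Fos and 0.112 for Fosb), and with the slide as a block, where 4.03% of all probes passed, both calls were also lost at ranges of 1.35 for Fos and 2.53 for Fosb. The range of Fosb was 1.2 under normexp.

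Dusp1 and Ier2 did not follow the others. The coronal levels of Dusp1 ran from -0.63 in fraction 1 to 0.11 in fraction 10 with a median of -0.36, and the value in fraction 3 (0.09) was almost as high as in fraction 10. Its fitted range was 0.16 (adjusted p = 0.893, limma), and the last 3 fractions differed from the first 3 by -0.07. Ier2 was the only member whose last 3 coronal fractions (-3.14 to -2.96) all lay below the first 3 (-2.69 to -2.09). Its fitted range was 0.82 (adjusted p = 0.0749), and it passed without fraction 1 (adjusted p = 0.00582).

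The neuronal genes Arc and Npas4 both increased along the coronal series. Arc levels were 0.28, -0.90 and -0.01 in fractions 1 to 3 and 1.39, 0.87 and 2.02 in fractions 8 to 10. Npas4 levels were -1.85, -2.97 and -2.55 in fractions 1 to 3 and 0.30, -0.23 and 0.30 in fractions 8 to 10. In both genes the groups did not overlap, and the means differed by 1.64 for Arc (3.12-fold) and by 2.58 for Npas4 (6.00-fold). The fitted range was 2.10 for Arc (adjusted p = 0.0145) and 3.19 for Npas4 (adjusted p = 0.00117) in limma. Npas4 passed in all 13 other settings, while Arc did not pass on the arrays with an in-range spike-in slope (range 1.54), with the slide as a block (range 2.72, 4.03% of all probes passing) or in the coronal arrays alone (range 2.10, 1.6% passing).

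With the ends of the coronal series set side by side, 6 of the 10 genes (Junb, Egr1, Egr2, Nr4a1, Arc and Npas4) had fractions 8 to 10 all above fractions 1 to 3, and 1 (Ier2) had them all below. Of all 39621 probes, 12.7% were all above and 10.9% all below. The median difference was 1.49 log2 units over the 10 genes and -0.10 over all probes. Fractions 1 and 2 had an out-of-range spike-in slope, and fractions 9 and 10 were on another slide than fractions 1, 3 and 8.

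Regional composition moved with these genes. The summed level of 8 cortex and hippocampus markers was 3.18 to 4.32 in coronal fractions 1 to 3 and 4.54 to 5.93 in fractions 8 to 10, and 7 of the 8 passed the coronal test with a positive slope. The sum was highest in fraction 9 (5.93) and lower in fraction 10 (4.54), whereas Egr1, Nr4a1, Arc and Fos were each highest in fraction 10. The 6 striatal markers summed to 2.11 to 2.37 in the first 3 fractions and to 3.41 to 6.44 in the last 3. The sum of 5 oligodendrocyte markers went the other way (7.36 to 8.43 against 3.84 to 5.21), as did that of 5 astrocyte markers (6.35 to 6.95 against 5.81 to 6.29). The sum of 7 blood markers was 4.48 to 4.76 in the first 3 and 4.97 to 5.38 in the last 3 fractions. However, 0 of the 7 passed with a positive slope and 2 passed with a negative slope. The sum of 6 pan-neuronal markers differed less, at 8.62 to 9.31 against 9.05 to 9.67, and 4 of the 6 passed with a positive slope. Over the 10 coronal fractions, the correlation with the cortex and hippocampus sum was highest for Egr2 (0.883), then Junb (0.665), Egr1 (0.652), Npas4 (0.559), Nr4a1 (0.463) and Arc (0.417). It was 0.101 for Fosb, -0.069 for Fos, -0.082 for Dusp1 and -0.594 for Ier2. The part of these regions in the levels was not tested.

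**Figure D2:**
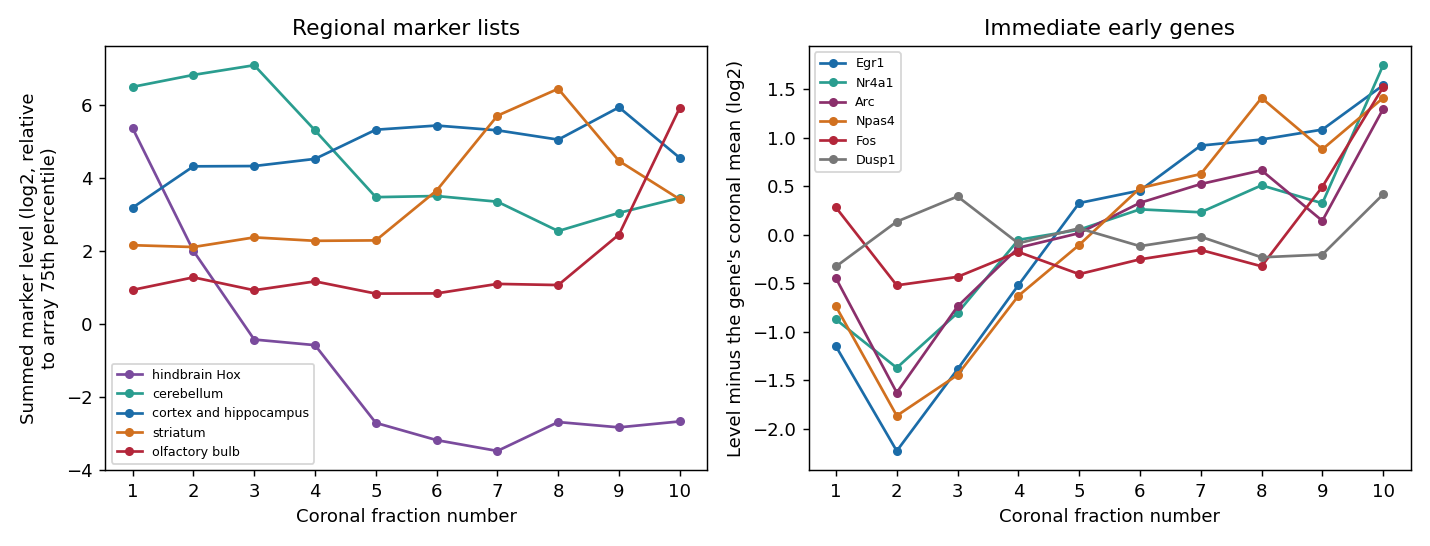
Left, summed level of 5 regional marker lists (log2 relative to the 75th percentile of the array) by coronal fraction; right, level of 6 immediate early genes minus the coronal mean of the gene (log2), 1 array per point. The olfactory bulb sum reached 5.92 in fraction 10, where Nr4a1 and Fos had their highest values, and the cortex and hippocampus sum peaked at 5.93 in fraction 9.

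Along the horizontal series, Arc and Fos passed the test and 8 of the 10 did not, both with a positive slope that kept its sign under all 5 scalings. Of all probes 6.57% passed, 3.94% with a positive and 2.63% with a negative slope. Arc was at -1.29, -0.94 and -0.26 in fractions 1 to 3 and at 0.98, 1.26 and 0.57 in fractions 4 to 6. Fos was at -3.14, -2.94 and -2.38 in fractions 1 to 3 and at -2.20, -1.71 and -1.81 in fractions 4 to 6. The fitted ranges were 2.45 for Arc (adjusted p = 0.0298) and 1.5 for Fos (adjusted p = 0.0214) in limma. The range of Fos was 0.65 under normexp, where it did not pass (adjusted p = 0.0648). It did not pass without scaling either (adjusted p = 0.0581), at a range of 1.83. Regional and cell type markers moved with this split. The oligodendrocyte sum was 3.23 to 5.20 in fractions 1 to 3 and 6.46 to 7.77 in fractions 4 to 6, the striatal sum 2.23 to 3.80 against 4.63 to 5.05, and the sum of 5 microglial markers 4.42 to 5.38 against 5.62 to 6.25. Astrocyte (5.39 to 6.20 against 6.46 to 6.78), hindbrain Hox (-2.81 to -1.65 against 0.17 to 2.42) and olfactory bulb sums (0.44 to 1.1 against 1.25 to 3.00) were higher too. The cortex and hippocampus sum was lower, 4.96 to 5.00 against 3.73 to 4.67, as was the pan-neuronal sum, 9.30 to 9.72 against 8.82 to 9.14. Their part in the levels was not tested. Fractions 1 to 3 are also the 3 horizontal arrays whose spike-in slope was out of range, and over the 6 fractions the signal of spike-in probe a107 correlated with the level at -0.923 for Arc, -0.862 for Fos, -0.963 for Egr1 and -0.974 for Nr4a1. With that signal as a covariate neither gene passed (range 1.45 for Arc and 1.24 for Fos), but only 0.199% of all probes did, and the in-range arrays left 3 horizontal fractions for a curve of 3 terms, so these fits do not separate position from spike-in signal. Fos was lost when fraction 1, 2 or 5 was left out and Arc when fraction 1, 2, 4 or 5 was.

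Npas4 ran against Arc in this series. It was highest in fractions 1 and 2 (-0.15 and -0.49) and between -1.57 and -0.93 in fractions 3 to 6, with a fitted range of 1.33 (adjusted p = 0.136, limma). Over the 6 fractions the 8 genes that did not pass had fitted ranges from 0.32 (Ier2) to 1.48 (Egr2, adjusted p = 0.0774, but 0.0461 with arrays centred on the median, 0.0155 with quantile normalization at a range of 2.6, and 0.0488 over probes detected on all arrays), and the median over the 10 genes was 0.85 against 0.99 for all probes.

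Along the sagittal series, 1 of the 10 genes passed, where 10.5% of all probes did, 7.59% with a positive and 2.87% with a negative slope. Npas4 was at -0.93, -1.13, -1.29, -1.49 and -0.86 in fractions 1 to 5 and at 0.66 in fraction 6. The last fraction stood above the others, and it was the highest Npas4 value on any of the 22 arrays. That fraction pools slabs 7 to 9. It also had the highest sagittal sum of 5 endothelial (6.90, against 5.13 to 5.73 in the others), 5 meningeal (6.04, against 4.58 to 5.30) and 7 blood markers (5.37, against 4.06 to 4.86), whose part in the Npas4 level was not tested. The fitted range was 2.01 (adjusted p = 0.0433, limma), but the call held in only 5 of the 22 fits without 1 array and in 5 of the 13 other settings. Without scaling the range was 0.87 (adjusted p = 0.488), and with the linear term alone it was 1.45. In the other settings that lost the call it was 1.92 to 2.04. In the same fraction Arc (-0.33), Fos (-2.56) and Nr4a1 (1.29) had their lowest sagittal values. The fitted ranges of the other 9 genes lay between 0.41 (Dusp1) and 1.19 (Egr2).

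**Figure D3:**
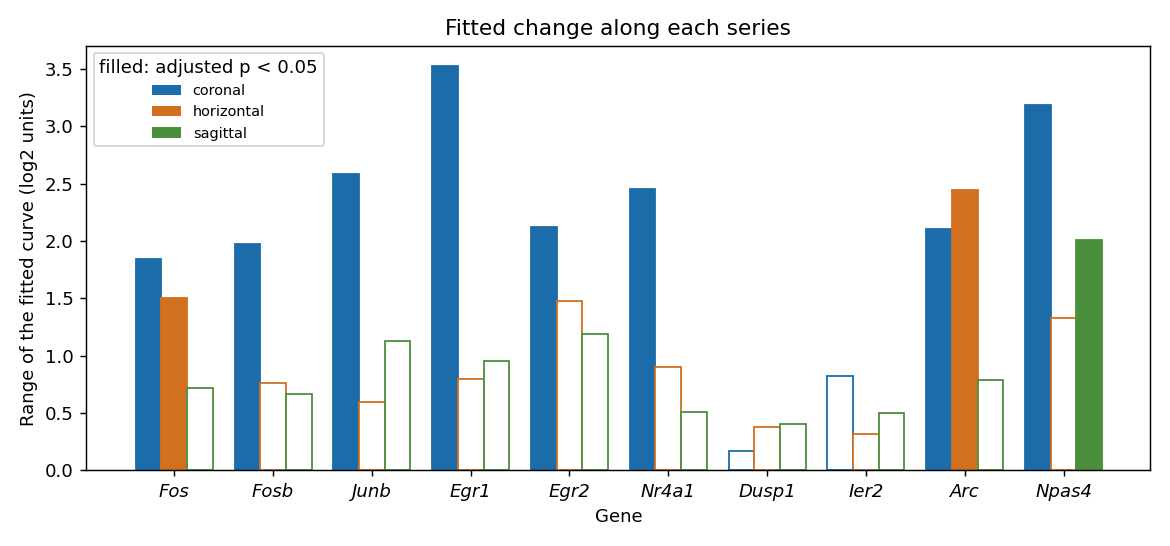
Range of the fitted quadratic curve (log2 units, y axis from 0) for each gene in the coronal, horizontal and sagittal series, with filled bars for an adjusted p under 0.05 in limma. All coronal bars except those of Dusp1 (0.16) and Ier2 (0.82) are filled, against Fos and Arc in the horizontal series and Npas4 in the sagittal series.

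To compare the neuronal with the general genes, each gene was centred on its mean over the 22 arrays and the profiles were averaged, over Arc and Npas4 and over the other 8. The 2 mean profiles had a Pearson r of 0.839 over the 22 arrays, which share 3 brains and their scaling. Within a series, r was 0.926 over the 10 coronal fractions, 0.856 over the 6 horizontal and -0.033 over the 6 sagittal fractions. Neuronal minus general ran from -1.13 in coronal fraction 2 to 0.69 in sagittal fraction 6, where the neuronal mean was 0.44 and the general mean -0.25. Of the neuronal genes only Npas4 was high in that fraction, since Arc had its lowest sagittal level there (-0.33). In coronal fraction 2 the neuronal mean was -1.66 and the general mean -0.53. The neuronal mean rests on both genes in the coronal series, where Arc and Npas4 correlated at 0.939, but not in the others, where they ran in opposite directions (r -0.835 over the 6 horizontal and -0.710 over the 6 sagittal fractions). Over all 22 arrays their r was 0.26.

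**Figure D4:**
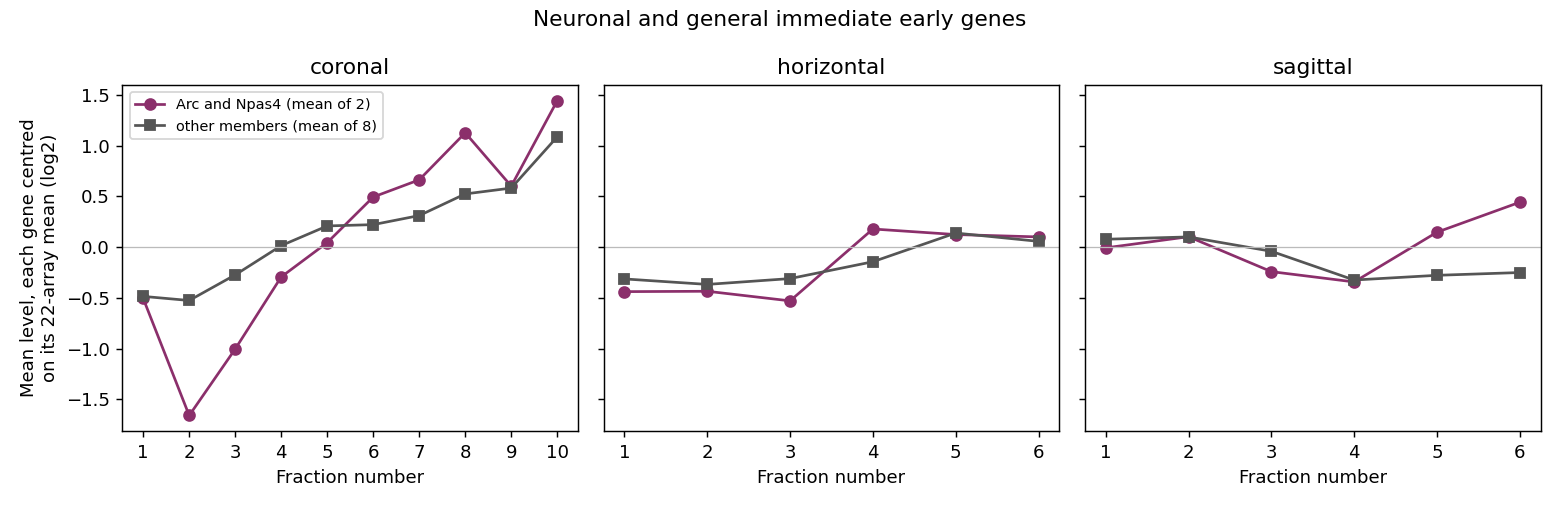
Mean level of Arc and Npas4 and of the other 8 immediate early genes, each gene centred on its mean over the 22 arrays (log2, y axis), by fraction number in the 3 series. The profiles climbed together in the coronal series and parted in sagittal fractions 5 and 6, at 0.15 and 0.44 for the neuronal and -0.28 and -0.25 for the general genes, with Npas4 (0.66) and not Arc (-0.33) high in fraction 6.

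Pairs of genes differed widely. In the coronal series, Egr1 and Npas4 had the highest r of the 45 pairs at 0.972, followed by Nr4a1 and Arc at 0.955. The r of other gene pairs along this series was not computed, so these values have no background beside them. Egr1 and Ier2 were the most opposed pair, at -0.902. The median over the pairs was 0.41 in the coronal, -0.24 in the horizontal and 0.068 in the sagittal series. These values share a brain, a scaling and the position along it, and describe likeness of course only.

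The levels in the 3 brains overlapped for every gene, and none of the 10 passed a test of the 3 series means, a test passed by 0.00757% of all probes (limma). At an unadjusted p under 0.05, 2 of the 10 genes passed, Fos and Ier2, against 10.2% of all probes. Over the 10 coronal, 6 horizontal and 6 sagittal fractions, Egr1 had a mean of 1.03 ± 1.25, 0.62 ± 0.37 and 0.70 ± 0.44 (SD over fractions). Arc had means of 0.73 ± 0.81, 0.06 ± 1.05 and 0.32 ± 0.38, and Npas4 of -1.11 ± 1.15, -0.95 ± 0.54 and -0.84 ± 0.77. For Arc the 95% interval of horizontal minus coronal ran from -1.5 to 0.16, and for Npas4 from -0.80 to 1.12, so differences of a log2 unit were not excluded by these arrays. The intervals and tests treat the fractions of a brain as its replicates and contain no spread between animals.

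For Fos and Ier2 the call depended on the fit. Fos had means of -1.48 ± 0.62 in the coronal, -2.36 ± 0.58 in the horizontal and -2.11 ± 0.29 in the sagittal brain. Ier2 had means of -2.75 ± 0.36, -2.91 ± 0.18 and -3.41 ± 0.26. With the series means alone the adjusted p was 0.327 for Fos and 0.238 for Ier2. With position terms in the fit, when 8.14% of all probes passed, both did (adjusted p = 0.00303 and 0.0208, limma). The error in both fits is the scatter between fractions and contains no spread between animals. These p-values therefore do not measure a difference between mice. The slide with all 6 sagittal fractions held only coronal fractions 9 and 10, the end at which Fos was highest. The means of those 2 and of the 6 sagittal fractions differed by 1.64 for Fos (adjusted p = 0.236) and by 0.35 for Ier2 (adjusted p = 0.79), which compares an end of a brain with a whole brain.

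**Figure D5:**
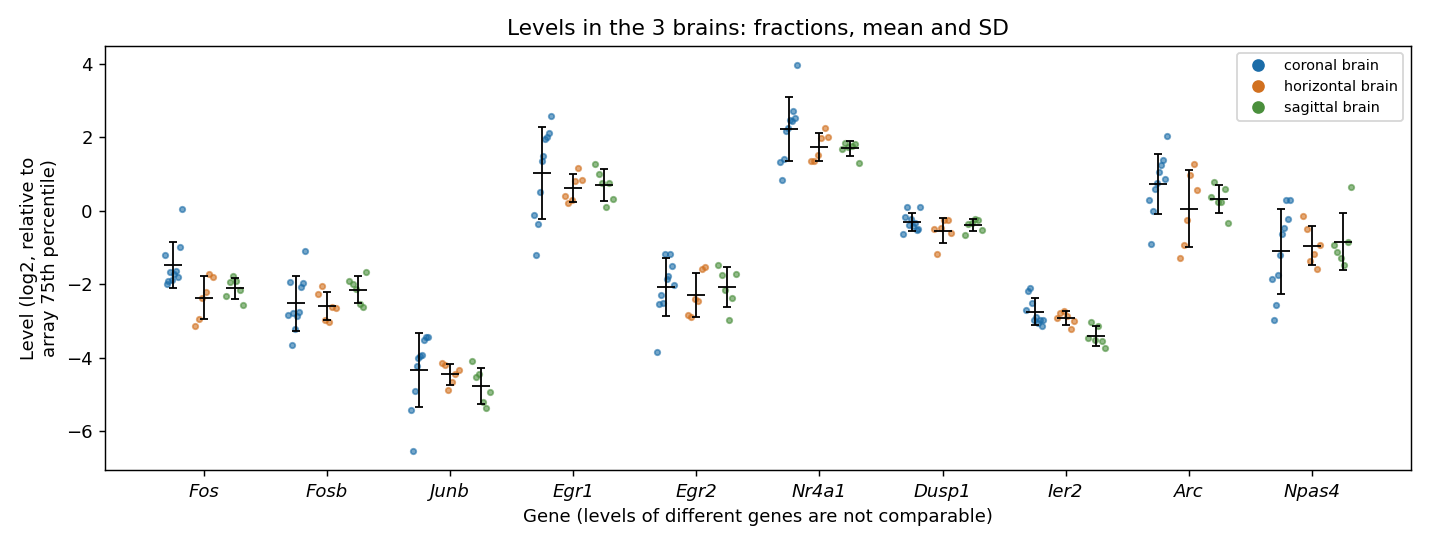
Level of each gene (log2 relative to the 75th percentile of the array, y axis) in the fractions of the coronal (n = 10), horizontal (n = 6) and sagittal (n = 6) brain, with the mean and SD over fractions. The brains overlap for all 10 genes, and the coronal brain has the largest SD for all but Arc and Dusp1.

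Of 49 further immediate early genes, delayed neuronal effectors and feedback regulators, 45 were tested. Along the coronal series 12 of them passed with a positive and 3 with a negative linear slope, against 12.4% and 7.46% of all probes, and 30 did not pass, with a median fitted range of 0.87 against 0.99 for all probes. Egr4, a further gene of the EGR family, had a fitted range of 5.56 (adjusted p = 0.000603, limma), from -2.86 in fraction 2 to 2.64 in fraction 9. Nab2, which binds Egr proteins and limits them, had a range of 3.10 and was also lowest in fraction 2 and highest in fraction 8. Nr4a2, a relative of Nr4a1 known from dopamine neurons, had a range of 3.21 and peaked in fraction 4 (3.33). Fosl2, a further AP-1 subunit, had a range of 2.97 and Ccn2, a matrix protein, of 2.88, the latter highest in fraction 10 (3.13). Dusp5, a nuclear ERK phosphatase, passed with a negative slope (adjusted p = 0.00767) but was well above background on only 10 of the 22 arrays, so its range is not given. A positive slope passed in 1 of 5 AP-1 genes tested, in 2 of 3 genes of the EGR family and its co-repressors, in Nr4a2, which nevertheless peaked in the middle of the series, and in 1 of 6 feedback regulators. Fosl1, Nr4a3 and Zfp36 were too dim to be tested.

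Of 13 neuronal effectors, most of which act at the synapse or are secreted, 2 passed in the coronal series with a positive and 2 with a negative slope (12.4% and 7.46% of all probes), and 9 did not pass. Nrn1, a secreted protein that promotes neurite growth, had a negative slope along the coronal series over a range of 2.66 (adjusted p = 0.00293, limma) and a positive slope along the horizontal series with a range of 2.05 (adjusted p = 0.0449). Scg2, a granin of secretory vesicles, passed there too, from 3.22 in fraction 1 to 5.61 in fraction 6. Nr4a2 had a horizontal range of 3.43 (adjusted p = 0.0405). Together 5 of the 45 passed with a positive and none with a negative slope in the horizontal series, against 3.94% and 2.63% of all probes, and 0 passed in the sagittal series, where 10.5% of all probes did, and 12 had an unadjusted p under 0.05 there (limma), against 23.9% of all probes.

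Of 18 genes for the kinases and factors that act upstream, 13 passed along the coronal series with a positive and 0 with a negative slope (12.4% and 7.46% of all probes), with a median fitted range of 1.21. Mef2c, a transcription factor of activity-dependent genes, had a range of 5.01 (adjusted p = 0.000247, limma) and was lowest in fraction 2 (-2.91) and highest in fraction 9 (1.61). Camk2a, a calcium-activated kinase of forebrain neurons, had a range of 4.46, from -3.27 in fraction 2 to 1.64 in fraction 6. Mef2c turned with the horizontal series, from 1.90 in fraction 1 to -0.67 in fraction 6 (range 2.60), opposite to Arc. In the horizontal and in the sagittal series 2 of the 18 passed, 1 in each direction, against 6.57% and 10.5% of all probes, and in the sagittal series these were Mef2d (range 1.21) and Elk4 (range 1.08). Of 9 stress genes tested, 1 passed with a positive and 1 with a negative slope along the coronal series, near the shares of all probes, and 2 with a positive slope along the horizontal (3.94% of all probes), among them Ddit4, a hypoxia-responsive inhibitor of mTOR (range 1.63, adjusted p = 0.00979).

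Among the 16691 genes tested, those most like each member over the 22 arrays were picked by Pearson's r. For Egr1 they were Robo2, an axon guidance receptor (r 0.944), and Efnb2, an ephrin (0.943), and for Nr4a1 Frat1 (0.946) and Ampd2 (0.943). Arc was most like Gad1, which makes GABA (0.930). Npas4 was most like A830018L16Rik (0.930) and Gucy1b1, a subunit of soluble guanylate cyclase (0.891), and Junb like Klhdc1 (0.924) and Cntnap3 (0.908). The remaining members had looser neighbours, with highest r of 0.884 for Dusp1 (Pan3, then Macroh2a2 at 0.875) and for Ier2 (Nle1, then Slc25a39 at 0.835). Fos reached 0.857 (Cacng5, then Pid1 at 0.846), Fosb 0.839 (Dlx6os2, then Cyp2c70 at 0.829) and Egr2 0.835 (Baiap2, then Gpm6a at 0.807). The number of genes with r above 0.85 was 90 for Egr1, 67 for Arc, 28 for Nr4a1, 26 for Junb and 11 for Npas4, and 0 for Fosb and Egr2.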

How the data were processed

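RNA of 22 brain fractions had been hybridized by the authors to single-colour arrays (Agilent SurePrint G3 Mouse), read with Feature Extraction 10.10.1.1 per the file headers. The deposited intensity values are background-subtracted processed signals, and the authors' deposited log2 table, used as an alternative, agreed within 0.02 for 99.9% of the matched values. Spots flagged as outliers (131 to 187 an array) and controls were left out, spots of a probe averaged, and each array scaled to its 75th percentile. Probes were kept that were well above background in at least 1 fraction of each series (39621 of 55600), and named through RefSeq accessions, of which 26553 of 28087 matched (names of assembly GRCm38.p6).

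limma 3.58.1 (R 4.3.3) fitted a mean, a linear and a quadratic slab position for each series to all 22 arrays, with 13 residual degrees of freedom, and called an adjusted p under 0.05. Series means were tested without position. The pooled scatter between fractions stands for error, the number of arrays limits the precision, and a fraction number is a position and not a replicate. In simulated data for 39621 probes, a change of 2.5 log2 units in 200 was recovered in 58% (coronal), 54% (horizontal), 50.5% (sagittal) and 88.5% (series means) of cases. The simulated probes had no other change along a series, and their noise was the scatter around the fitted curves. The error of the real series means also holds the change along each brain. The 88.5% is therefore too high for genes that change with position. The normexp alternative used median signals, since no mean signal column was present. Python 3.11.15 with pandas 2.3.3 and matplotlib 3.10.9 made the summaries and plots.

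The members and lists were chosen with earlier results of these data known, and the comparison of coronal fractions 1 to 3 with 8 to 10 after the values were seen. Named genes are the members, the 8 related, upstream or stress genes with the widest fitted range among those passing the coronal test and up to 5 for each other test, and the 2 genes most like each member, of which 1 is not reported here.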

Additional observations from a re-analysis of the deposited data

Results flagged for a closer look

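Over the 30 sets of levels (10 genes in 3 series), 4 had an extreme fraction farther from its nearest neighbour than Dixon's 95% critical value allows, where chance gives about 1 in 20. Fos in coronal fraction 10 was at 0.043, against -2.0 to -0.98 in the other coronal fractions. Egr2 in coronal fraction 1 was at -3.84, and the next lowest coronal value was -2.55 in fraction 2. Nr4a1 in sagittal fraction 6 was at 1.29, below the 1.69 to 1.85 of the other sagittal fractions. Npas4 in sagittal fraction 6 was at 0.66, above the -1.49 to -0.86 of the others. No cause of these values was tested.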

How the results depend on the processing

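Of 1396 gene-level values recomputed, 1325 kept their side of the threshold, 57 no longer passed and 14 newly passed. The linear slope changed sign in 26 of them, all for genes that had not passed in that series. The coronal count of 8 genes (19.8% of all probes passing) fell to 5 with the slide as a block (4.03%), to 5 with the linear term alone (7.12%) and to 4 in the coronal arrays alone (1.6%; Fos, Egr1, Nr4a1 and Npas4), and was 6 to 8 without 1 array. The horizontal count of 2 was 1 (Arc) without scaling (5.82%), with normexp (5.03%) and with the linear term alone (0.52%), 0 with in-range arrays (0.0328%), with the a107 covariate (0.199%) and in the horizontal arrays alone (0%), 3 with Egr2 added when centred on the median (3.09%), quantile normalized (8.14%) or limited to probes detected on all arrays (16.1%), and 0 to 3 without 1 array. The sagittal count of 1 was 0 with arrays centred on the median (3.56%), quantile normalization (4.86%), no filter (6.72%), in-range arrays (0.00252%), the a107 covariate (10.3%), the linear term alone (0.0101%) and the sagittal arrays alone (0%). It was 2, Junb and Npas4, with normexp (20.5%) and the slide as a block (12.3%), with the slope of Junb positive in the former and negative in the latter, and 2 without scaling (13.9%), Fos and Ier2 but not Npas4 (adjusted p = 0.488, limma), and 0 to 2 without 1 array. Where almost no probe passed, a count of 0 says nothing about the gene. The series count of 0 became 2 with position terms and stayed 0 without any 1 array. The correlation of the neuronal with the general profile, 0.839, was -0.033 within the sagittal series and 0.788 to 0.878 without 1 array. The cause of these changes was not tested.

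Scaling moved the median over all probes of the change along a series. It was -0.16 (coronal), -0.20 (horizontal) and -0.06 (sagittal) with the 75th percentile, 0.03, 0.31 and 0.04 centred on the median, and -0.24, -0.12 and -0.81 without scaling. The share of passing probes with a positive slope was 62.4% (coronal), 60.02% (horizontal) and 72.5% (sagittal). Without scaling it was 53.9%, 48.8% and 3.37%, and with quantile normalization 67.4%, 81.2% and 53.4%. No paired analysis was possible because the fraction numbers of different series are positions along different axes of different brains. The values of Junb are limited by its signal, which was not well above background on 5 of the 22 arrays.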
